A study of Mus musculus with 2 samples.

Results

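Natural killer (NK) cells of the early rib callus were taken from the single-cell RNA sequencing libraries as barcodes with 200 or more detected genes, under 10% of UMIs on mitochondrial genes, at least 2 UMIs summed over Nkg7, Ncr1, Klrb1c, Klre1 and Gzma, 0 UMIs of Cd3d, Cd3e and Cd3g, and under 2% of UMIs on Col1a1, Col1a2 and Col3a1. A UMI is a counted RNA molecule. The rule found 117 cells among the 19564 cells that passed the filters on genes and mitochondrial UMIs, of 21259 barcodes in all. The control library held 55 of them among 10057 kept cells, and the Smo cKO library held 62 among 9507.

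The study asked what the loss of Hedgehog signaling in Sox9+ skeletal progenitors does to the callus that fills a large-scale rib resection. Control animals were Sox9:CreER;R26:tdT;Smo f/+ and Smo cKO animals were Sox9:CreER;R26:tdT;Smo f/f, so that the controls also carried the CreER transgene, the tdTomato reporter and 1 floxed Smo allele. Animals of 8 to 12 weeks received 3 tamoxifen injections from day -7 to day -5 before resection, and the callus was harvested at 4 dpi, with the tissue of 3 animals pooled into 1 library per genotype. Recombination was driven by the Sox9 promoter, which is active in skeletal progenitors and not in the blood lineage that gives NK cells. All barcodes summed to 105367110 UMIs for control and 112700220 UMIs for Smo cKO, over 10747 and 10512 barcodes. With 1 library per genotype there is no replicate check on any genotype difference, and animals, dissections and library preparation cannot be told apart from genotype. Intervals below are 95% intervals (exact, and Newcombe for differences of shares) that cover counting error only, and paired values give the control first and the Smo cKO library second.

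NK cells are innate lymphocytes that kill stressed or infected cells and release cytokines and chemokines. They carry no rearranged antigen receptor and instead read a balance of activating and inhibitory receptors, among them the lectin-like Klr family encoded in the NK gene complex. Killing is carried out by granules that hold perforin and granzymes, and in injured tissue NK cells are also known as a source of interferon gamma and of chemokines that call in other leukocytes.

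The libraries shared 613 barcodes. Of the members, 2 control and 0 Smo cKO cells carried a shared barcode, and none was a member in both libraries. No doublet caller was run. Smo, the Hedgehog signal transducer deleted in the study, was read over all barcodes beside the labels. It gave 1816 UMIs (17.2 CPM, UMIs scaled to a total of 1000000) in 1526 control cells and 1203 UMIs (10.7 CPM) in 1042 Smo cKO cells. Pdgfra, a connective gene, was lower as well, at 94.2 and 70.55 CPM. Kept cells with 2% or more of UMIs on the 3 collagen genes numbered 5272 and 3911. The part of cell composition in the Smo values was not tested, so by themselves they do not check the labels. Within the members Smo gave 4 UMIs in 3 control cells and 0 UMIs in the Smo cKO cells. The members therefore hold too few Smo molecules to be read for the deletion. The tdTomato reporter of Sox9 recombination gave 0 UMIs in the control members and 1 UMI in the Smo cKO members.

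The rule gathered cells of 2 kinds. Of the 117 members, 38 carried UMIs of Elane, Prtn3, Mpo, Ctsg or Ms4a3, the enzymes and membrane protein that mark the primary granules of neutrophil precursors, and 79 carried none. The first kind, called granule-gene members here, made up 19 cells in each library. The second kind, called NK-like members, made up 36 control and 43 Smo cKO cells. The split was made after these values were seen.

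In the granule-gene members, the sum of the 5 granule genes ran from 1 UMI through a median of 112 to 191 UMIs per control cell and from 5 through 158 to 440 UMIs per Smo cKO cell. These 38 cells met the rule through Nkg7, with 80 and 92 UMIs, as Gzma gave 0 and 1 UMI and Ncr1, Klrb1c and Klre1 gave 0 UMIs in them. Il2rb, Klrd1, Klrk1, Xcl1, Gzmb, Prf1 and Eomes gave 0 UMIs in both libraries. Over 17 NK genes that the rule did not use, the granule-gene members held 1 UMI, of Txk, among control cells and 0 UMIs among Smo cKO cells. The label of NK cells thus went against the data in these 38 cells, and they are named below only by their leading genes.

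The same 17 genes gave 263 UMIs in 34 of 36 control NK-like members, with a median of 5 and a highest value of 27 per cell, and 638 UMIs in 43 of 43 Smo cKO NK-like members, with a median of 11 and a highest value of 52 per cell. The kinds thus separated almost completely on genes outside the rule. Among the given markers outside the rule, Il2rb, the beta chain of the interleukin 2 and interleukin 15 receptors, was found in 19 control and 29 Smo cKO NK-like members, and Txk, a Tec family kinase of lymphocytes, in 22 and 33. At full depth T cells held both as well, Il2rb in 41.9% and 35.4% of them and Txk in 20.9% and 25.7%. The full-depth shares of NK-like members were 52.8% and 67.4% for Il2rb and 61.1% and 76.7% for Txk. With each cell thinned to 1000 UMIs, Il2rb was found in 53.8% and 32.5% of NK-like members and 37.1% and 16.8% of T cells. The Il2rb share of NK-like members thus turned lower in the Smo cKO, with overlapping intervals (33.4 to 73.4 and 18.6 to 49.1). Thinned Txk was found in 34.6% and 50% of NK-like members and 14.3% and 14.0% of T cells. Defining T cell genes were kept at 0 by the rule, while the marker lists for B cells (7 and 2 UMIs), dendritic cells (8 and 7 UMIs), mast cells (1 and 0 UMIs) and neutrophils (8 and 7 UMIs) were nearly empty in the NK-like members. The connective (677 and 820 UMIs), macrophage (59 and 151 UMIs), erythroid (62 and 161 UMIs) and T cell lists (52 and 136 UMIs) were not. The name NK-like was kept for these 79 cells.

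**Figure D1:**
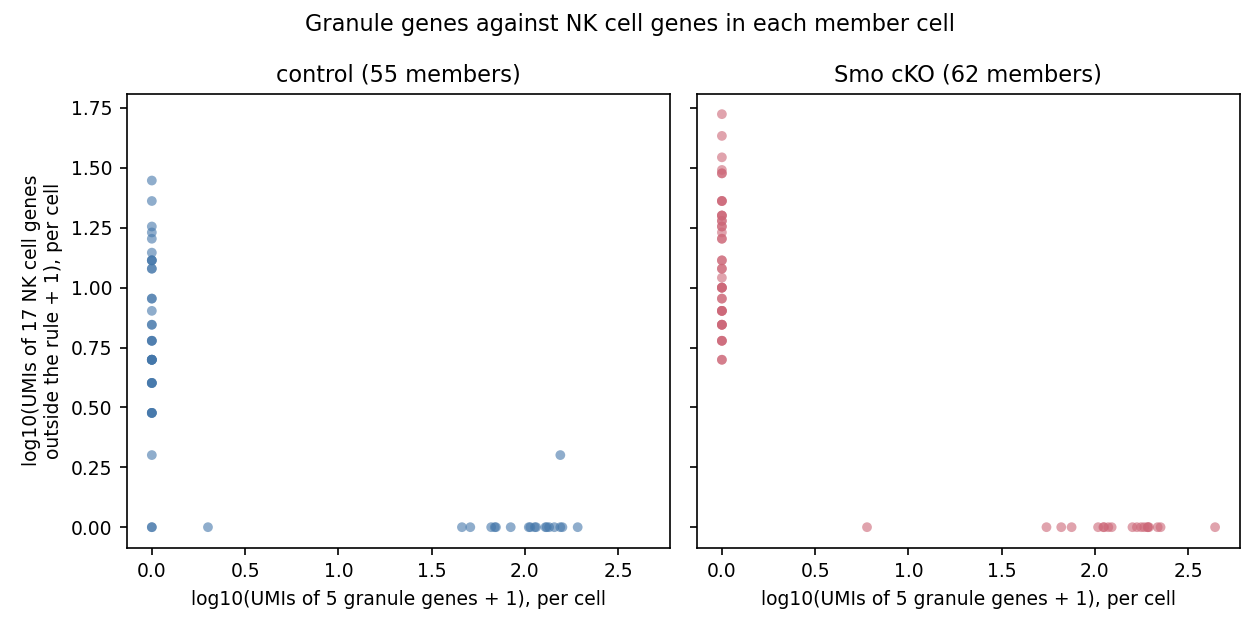
Each point is 1 member cell of the control (left) or Smo cKO library (right), with log10(UMIs + 1) of the 5 granule genes on the x axis and of the 17 NK genes outside the rule on the y axis. The 38 granule-gene members lie along the x axis with 0 or 1 NK gene UMI, and the 79 NK-like members lie on the y axis at 0 granule gene UMIs, 2 control cells among them at the origin.

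Nkg7, a granule membrane protein of cytotoxic lymphocytes, is the rule gene through which both kinds entered. Of kept cells outside the members with low collagen, no Cd3 UMI and at least 5 granule gene UMIs, 6 of 15 in the control (40.0%, 16.3 to 67.7) and 5 of 18 in the Smo cKO (27.8%, 9.69 to 53.5) carried a single Nkg7 UMI, since a cell with more would have met the rule. These cells held a median of 18 and 26 granule gene UMIs, against 113 and 158 in the members with at least 5.

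The 250 bases upstream of the annotated start are shown for Nkg7, carried by both kinds, for Klrb1c (the NK1.1 receptor) and Klrk1 (the activating receptor NKG2D), carried by the NK-like members, and for Elane (neutrophil elastase), carried by the granule-gene members. The sequences are from RefSeq on build GRCm38.p6, written 5' to 3' on the strand of the gene. They lie at chr7:43436888-43437137 on the plus strand for Nkg7, chr6:128788642-128788891 on the minus strand for Klrb1c, chr6:129623865-129624114 on the minus strand for Klrk1 and chr10:79886062-79886311 on the plus strand for Elane. Capitals mark matches on either strand to a RUNX motif (TGTGGT), a T-box motif (AGGTGT) and a C/EBP motif (TTGCNNAA), which do not overlap here.
Nkg7: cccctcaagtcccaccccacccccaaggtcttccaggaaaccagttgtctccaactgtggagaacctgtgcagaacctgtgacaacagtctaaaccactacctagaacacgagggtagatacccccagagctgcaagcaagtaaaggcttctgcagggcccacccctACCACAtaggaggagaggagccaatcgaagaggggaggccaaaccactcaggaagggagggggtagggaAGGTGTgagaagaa
Klrb1c: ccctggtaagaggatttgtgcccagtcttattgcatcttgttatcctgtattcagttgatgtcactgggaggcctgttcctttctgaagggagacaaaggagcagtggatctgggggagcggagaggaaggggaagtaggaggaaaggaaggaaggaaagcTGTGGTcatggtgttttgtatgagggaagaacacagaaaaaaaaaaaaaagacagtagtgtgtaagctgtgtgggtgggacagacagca
Klrk1: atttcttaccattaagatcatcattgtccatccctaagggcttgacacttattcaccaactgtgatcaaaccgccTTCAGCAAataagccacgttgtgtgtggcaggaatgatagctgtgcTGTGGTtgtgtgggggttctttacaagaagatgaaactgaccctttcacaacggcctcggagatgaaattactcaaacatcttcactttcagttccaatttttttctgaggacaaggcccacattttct
Elane: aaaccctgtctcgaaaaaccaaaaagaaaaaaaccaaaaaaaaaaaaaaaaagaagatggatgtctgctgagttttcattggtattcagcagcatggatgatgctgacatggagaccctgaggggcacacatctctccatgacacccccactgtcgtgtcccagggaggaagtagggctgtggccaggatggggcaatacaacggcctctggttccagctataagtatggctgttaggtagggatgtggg
The Nkg7 window held 1 RUNX match (as ACCACA, its reverse complement) and 1 T-box match, the Klrb1c window 1 RUNX match, the Klrk1 window 1 RUNX and 1 C/EBP match, and the Elane window 0 matches of the 3 motifs. Of 32851 promoter windows of the same length, 14% held the RUNX motif, 11.8% the T-box motif and 9.56% the C/EBP motif. The matches are a description of the letters in these windows.

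The rule genes chose the members, so their levels in the NK-like members are only described. Nkg7 gave 96 UMIs in 31 control cells and 171 UMIs in 42 Smo cKO cells. Gzma, the granule protease granzyme A, gave 127 UMIs in 19 cells and 227 UMIs in 31 cells, and a single control cell held 33.1% of the control UMIs. Klre1, a lectin-like receptor, gave 18 and 39 UMIs, Klrb1c 8 and 20 UMIs, and Ncr1, the activating receptor NKp46, 2 and 8 UMIs. Nkg7 and Gzma thus carried most of the selection, and the receptors were each found in a minority of the cells.

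At the edge of the rule, 17 control cells had exactly 2 UMIs of the 5 genes, of which 5 were granule-gene cells and 11 had 2 or more UMIs of the 17 other NK genes. In the Smo cKO library 7 cells had exactly 2 UMIs, and 7 of them were granule-gene cells with none at 2 or more NK gene UMIs. Just outside, at 1 UMI, were 37 control and 64 Smo cKO cells, of which 12 and 9 had 2 or more UMIs of the other NK genes and 9 and 8 carried granule genes. A further 7 control and 28 Smo cKO cells met every other condition and were left out for a Cd3 UMI.

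Members of both kinds were a small share of the callus cells in both genotypes. All members, the granule-gene members included, made up 0.547% (0.412 to 0.711) of kept control cells and 0.652% (0.50 to 0.835) of kept Smo cKO cells. The difference was 0.105 percentage points (-0.113 to 0.328). NK-like members made up 0.358% (0.251 to 0.495) and 0.452% (0.328 to 0.609), a difference of 0.0943 points (-0.0855 to 0.280). Neither difference was larger than its counting error. Among kept cells with under 2% collagen UMIs (4785 control and 5596 Smo cKO cells), the NK-like share was 0.752% and 0.768%.

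T cells, taken as kept cells with at least 2 UMIs of Cd3d, Cd3e and Cd3g and low collagen, were 43 control and 113 Smo cKO cells. Their share of kept cells was 0.428% (0.310 to 0.575) and 1.19% (0.981 to 1.43), a difference of 0.761 points (0.513 to 1.02). NK-like members were accordingly 45.6% of 79 NK-like and T cells in the control and 27.6% of 156 in the Smo cKO, a difference of -18.0 points (-30.7 to -5.09). With all members in place of the NK-like members the shares were 56.1% of 98 cells (45.7 to 66.1) and 35.4% of 175 cells (28.4 to 43.0). Both statements depended on the rule. For all members at 5 or more NK gene UMIs, the difference in members plus T cells was -6.75 points (-20.4 to 6.0), within counting error. That in kept cells was 0.223 points (0.0625 to 0.395), past it. Granule-gene cells were 6 of 13 control members at 5 to 9 UMIs and 1 of 9 at 10 or more, and 4 of 21 and 2 of 21 in the Smo cKO. The differences for NK-like members alone were not computed at this minimum. With a UMI of Ncr1, Klrb1c or Klre1 as well, which the granule-gene members lacked, the differences were -7.16 (-20.9 to 4.83) and 0.124 points (-0.00567 to 0.264).

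**Figure D2:**
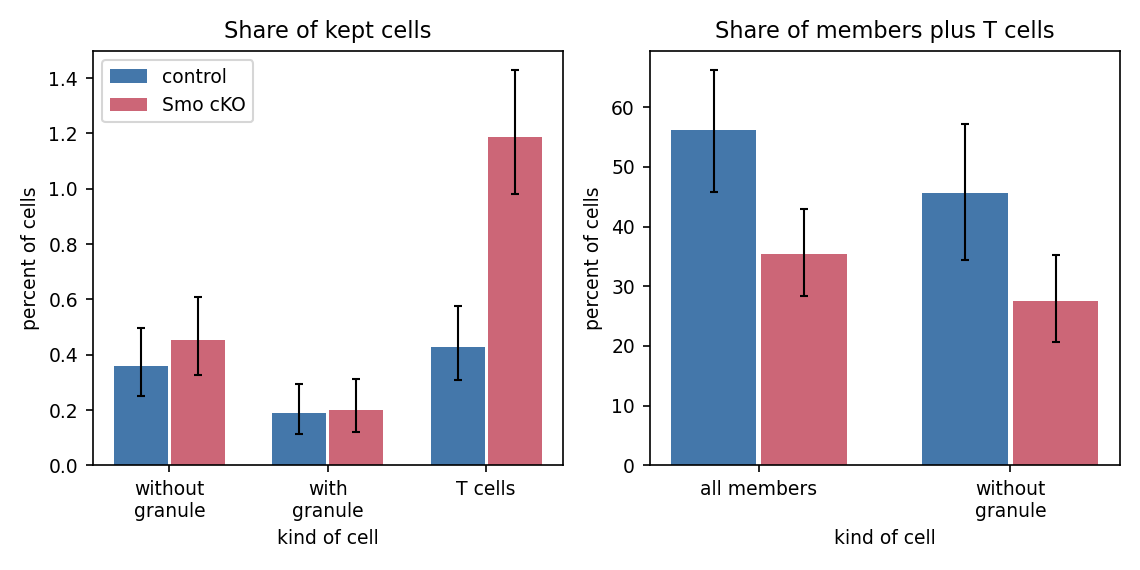
Bars give the percent of kept cells (left) for NK-like members (without granule), granule-gene members (with granule) and T cells, and the percent of members plus T cells (right) for all members and NK-like members, by library, with exact 95% binomial intervals. The intervals overlap between libraries for both kinds of member on the left and not for T cells (0.310 to 0.575 and 0.981 to 1.43).

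The NK-like members were shallow cells. Their totals were 86603 and 128085 UMIs, with a median of 1420 UMIs per cell (533 to 21541) and 2071 UMIs per cell (709 to 12652), so that 3 UMIs correspond to 34.6 and 23.4 CPM. A few deep cells weighed heavily: 1 control cell held 21541 UMIs, 24.9% of the control total, with 100 of the 109 Ccl2 UMIs and 171 of the 202 Sparc UMIs and 8 UMIs of the 17 NK genes. The Smo cKO library had 1 cell of 12652 UMIs, 9.88% of its total, with 108 of 119 Hspb1 UMIs and 56 of 59 Cryab UMIs. Cells with more than 2000 genes numbered 2 (control) and 3 (Smo cKO), and values without these 5 cells are given below beside those that changed most. Leaving them out also removed cells rich in NK genes. The other deep control cell held 27 UMIs of the 17 NK genes, the highest value of its library, and 1 Smo cKO cell of 9878 UMIs held 42.

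Against all other kept cells, 89 of 1391 genes (6.4%) stood 4-fold or more higher in the NK-like members of both libraries and 66 (4.74%) stood lower by as much. For all members these counts were 69 of 1362 (5.07%) and 131 (9.62%). The highest ratios belonged to Klra7, an inhibitory receptor of the Ly49 family (log2 ratios of 11.97 and 10.52, the first from 3 UMIs in the other cells, 10.01 to 14.47), Xcl1, a chemokine for cross-presenting dendritic cells (9.90 and 9.19), Klrc1, the inhibitory receptor NKG2A (12.10 and 9.06, the first also from 3 UMIs, 10.18 to 14.59), and Gzmb, granzyme B (10.23 and 8.75). Txk (9.21 and 8.59), Sh2d2a, an adaptor of lymphocyte signaling (9.09 and 8.33), Il2rb (8.59 and 8.09), Ms4a4b (9.45 and 8.0), AW112010 (8.37 and 7.85) and Klrd1, the CD94 partner of NKG2A (7.82 and 7.81), followed. Trbc1, a T cell receptor beta constant gene, was also among the 15 highest (8.44 and 7.67). A group chosen by its markers is bound to differ from the rest, so these ratios describe the cells and are no test.

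Receptors and their adaptors. Il2rb gave 42 UMIs (485 CPM) in control and 62 UMIs (484 CPM) in Smo cKO NK-like members. Klrd1 gave 34 UMIs in 14 cells and 46 UMIs in 23 cells (393 and 359 CPM). Both were at nearly the same level in the libraries. Tyrobp, the DAP12 adaptor that carries the signal of activating receptors, gave 69 and 160 UMIs (797 and 1249 CPM), a log2 ratio of 0.65 (0.23 to 1.08), which is under 2-fold. Fcer1g, the Fc receptor gamma chain, gave 64 and 105 UMIs (739 and 820 CPM).

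At full depth, Klrk1 differed between the libraries by more than its counting error. It gave 9 UMIs in 8 of 36 control cells and 62 UMIs in 28 of 43 Smo cKO cells, 104 and 484 CPM, a log2 ratio of 2.22 (1.20 to 3.41). Without the 5 deep cells it gave 6 and 51 UMIs, a log2 ratio of 2.36 (1.14 to 3.87). In the T cells Klrk1 gave 7 and 27 UMIs, a log2 ratio of -0.50 (-1.74 to 0.94), an interval that lies below that of the NK-like members. Without T cells above 2000 genes it was 0.26 (-1.0 to 1.72), which overlaps the NK-like interval. With each cell thinned to 1000 UMIs, Klrk1 was found in 19.2% of the 26 control NK-like members with enough depth (6.56 to 39.4) and in 37.5% of the 40 from the Smo cKO (22.7 to 54.2), intervals that overlap. The level of Klrk1 over all members thinned in this way had a log2 ratio of 1.42 (-0.25 to 3.48), within counting error. Cells with 2% or more of UMIs on the 3 collagen genes, called collagen-rich below, should lack the gene and gave 0.0198% and 0.0264% at the same depth, with median totals of 10156 and 12164 UMIs before thinning. The unthinned shares were 22.2% and 65.1% of NK-like members and 0.474% and 0.332% of collagen-rich cells.

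The Ly49 genes (Klra family) share sequence, and reads may be divided among them, so they were also summed. The Ly49 genes gave 29 UMIs in 11 control cells and 86 UMIs in 18 Smo cKO cells. Klra7 gave 10 and 29 UMIs, and 1 control cell held 80% of the control UMIs. Klra8, the activating receptor Ly49H, gave 4 and 16 UMIs, and Klra4 gave 7 and 20 UMIs. Klrb1b, an inhibitory receptor for a lectin-like ligand, gave 5 and 26 UMIs (58 and 203 CPM), a log2 ratio of 1.81 (0.41 to 3.55). The interval left 0 for Klrb1b and not for Klrc2 (5 and 17 UMIs, 1.20, -0.30 to 2.99) or Klra9 (5 and 19 UMIs, 1.36, -0.11 to 3.14). These intervals cover counting error only, not the spread over cells or animals, so even an interval past 0 does not fix a direction of genotype.

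Cytotoxic granules. Gzmb gave 21 UMIs in 8 control cells and 55 UMIs in 24 Smo cKO cells (242 and 429 CPM), a log2 ratio of 0.82 (0.08 to 1.62), and 0.24 (-0.55 to 1.07) without the deep cells. Prf1, perforin, gave 5 and 15 UMIs, and the level of the gene was close to the limit of these libraries. Srgn, the proteoglycan core of granules, gave 61 and 156 UMIs, a log2 ratio of 0.79 (0.35 to 1.24), while over all members it stood at -0.49 (-0.68 to -0.29). The granzyme inhibitor genes Serpinb6b (22 and 70 UMIs, 1.11, 0.40 to 1.87) and Serpinb9 (13 and 36 UMIs) were higher in CPM in the Smo cKO library, the first past 2-fold, which it was not without the deep cells (0.76).

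Chemokines and cytokines. Ccl5, a chemokine for T cells and monocytes, was the most abundant NK gene outside the rule, with 321 UMIs in 26 control cells and 646 UMIs in 36 Smo cKO cells (3707 and 5044 CPM), a log2 ratio of 0.44 (0.25 to 0.64). Without the deep cells the ratio was 0.096 (-0.11 to 0.30), within counting error. Thinned to 1000 UMIs Ccl5 was found in 65.4% and 67.5% of cells, against 17.1% and 31.8% of T cells and 0.971% and 2.0% of collagen-rich cells. Before thinning the shares were 72.2% and 83.7% of NK-like members, 20.9% and 36.3% of T cells and 5.73% and 10.5% of the far deeper collagen-rich cells. Xcl1 gave 59 UMIs in 17 cells and 143 UMIs in 26 cells (681 and 1116 CPM), a log2 ratio of 0.71 (0.27 to 1.18), and thinned it was found in 42.3% and 40.0% of cells. The shares at equal depth were thus close. The level over all members thinned to 1000 UMIs had a log2 ratio of 0.98 (0.68 to 1.28) for Ccl5 and 0.84 (0.059 to 1.68) for Xcl1. These 2 ratios include the granule-gene members and leave out 10 control and 3 Smo cKO members with fewer UMIs. The part of the cells left out in these ratios was not tested. Ifng, interferon gamma, gave 3 and 10 UMIs, and Cxcl10, an interferon-induced chemokine, 1 and 16 UMIs.

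Transcription factors and maturation. Irf8, an interferon regulatory factor, gave 27 UMIs in 15 control cells and 110 UMIs in 34 Smo cKO cells (312 and 859 CPM), a log2 ratio of 1.46 (0.84 to 2.13), and 1.23 (0.60 to 1.91) without the deep cells. Over all members it was 1.26, and 0.62 (-0.13 to 1.44) where a UMI of Ncr1, Klrb1c or Klre1 was asked for as well. Thinned to 1000 UMIs it was found in 30.8% and 55.0% of NK-like members, in 0% and 2.80% of T cells, and in 0.337% and 0.343% of collagen-rich cells. Before thinning the collagen-rich cells gave 3.0% and 3.48%, against 41.7% and 79.1% of NK-like members. Eomes, a T-box factor of conventional NK cells, gave 6 and 17 UMIs, and Tbx21, the T-box factor T-bet, 0 and 8 UMIs. Runx3, a Runt factor of cytotoxic lymphocytes, gave 25 and 68 UMIs, a log2 ratio of 0.88 (0.20 to 1.60). Id2, which opposes E proteins in innate lymphocytes, gave 50 and 83 UMIs (577 and 648 CPM).

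Several genes of NK maturity gave few UMIs. Itgam (CD11b) gave 0 and 3 UMIs, Cx3cr1 0 and 2 UMIs and Klrg1 0 and 1 UMI, while Cd27, the marker of the earlier stage, gave 7 and 12 UMIs. Other genes of these lists were more abundant. The mature list gave 389 and 633 UMIs, 73.9% of its level from Lgals1, and the immature list 308 and 576 UMIs, 38.0% from Ctla2a. Among genes of type 1 innate lymphoid cells or tissue residence, Cxcr6 gave 1 and 1 UMI, Itga1 1 and 0 UMIs and Il7r 3 and 2 UMIs. That list gave 68 and 113 UMIs, 62.4% from Rgs1. No maturation stage or innate lymphoid subtype was assigned from these counts. Il7r and Cxcr6 were found in the T cells (below), whose median depths were 1414 and 1702 UMIs per cell. The proliferation genes Mki67 (5 and 4 UMIs) and Top2a (7 and 9 UMIs) were found at similar low counts in both libraries.

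**Figure D3:**
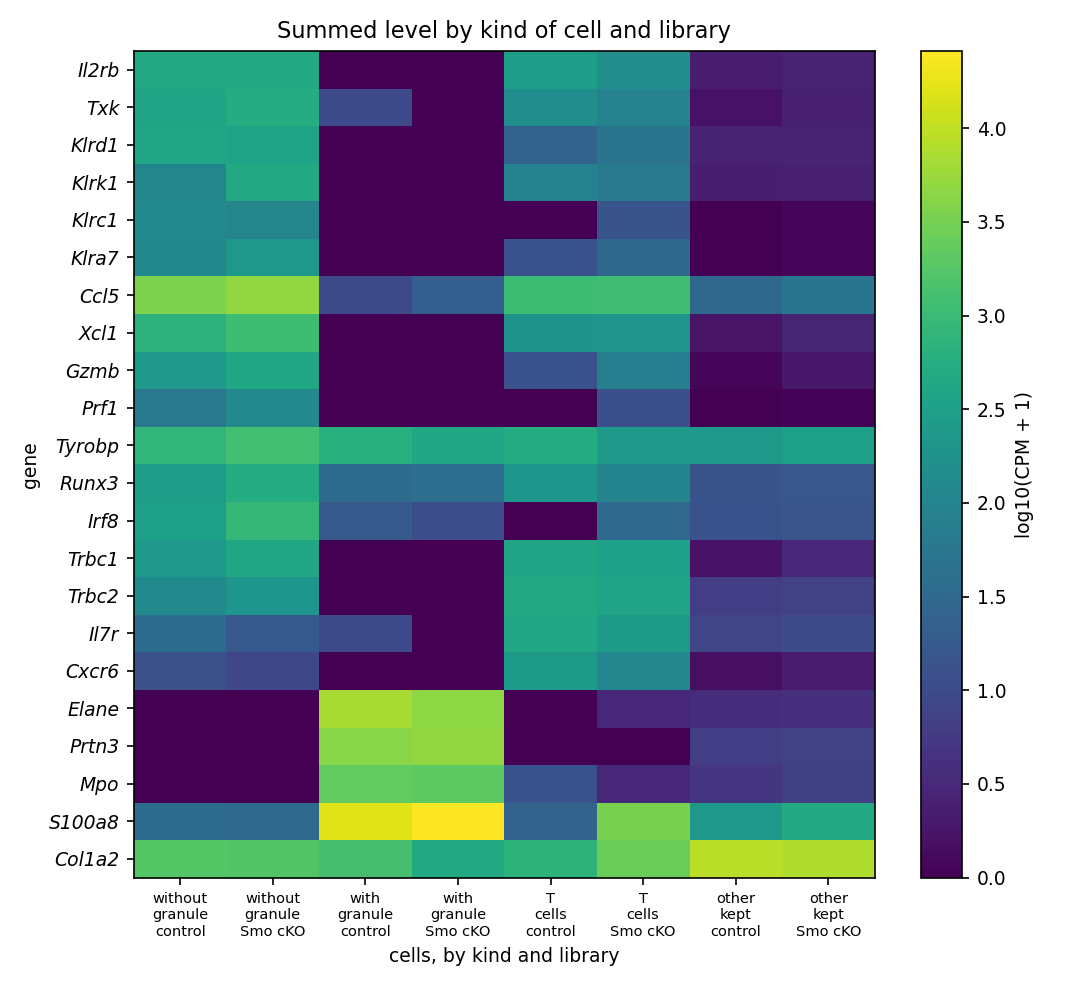
Colour gives log10(CPM + 1) of each gene (y axis) in the NK-like members (without granule), the granule-gene members (with granule), the T cells and the other kept cells of each library (x axis). Ccl5 is the highest NK gene in the NK-like members at 3707 and 5044 CPM, while Elane, Prtn3 and Mpo are at 0 there and high in the granule-gene members.

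T cells are the other lymphocytes compared here. Of 1107 genes, 8 (0.723%) stood 4-fold or more above T cells in the NK-like members of both libraries and 15 (1.36%) stood as far below, genes of the selection rules left out. For all members it was 22 of 1111 genes (1.98%) and 19 (1.71%). In log2 ratios, AW112010 was higher in NK-like members by 2.31 and 2.36. Klrd1 was higher by 4.02 (2.06 to 7.12) and 2.88 with 2 and 22 UMIs in T cells, Gzmb by 4.33 (1.69 to 9.70) and 2.51 with 1 and 34 UMIs, and Serpinb9 by 2.63 (0.49 to 5.82) and 3.29 with 2 and 13 UMIs. Klra7 was higher by 3.26 (0.44 to 8.70) and 2.97 with 1 and 13 UMIs, and Itga4, the alpha 4 integrin, by 3.10 (0.25 to 8.56) and 2.01 with 1 and 14 UMIs. The control T cells thus held few molecules of these genes, and the control ratios are imprecise. Irf8 was at 0 UMIs in the control T cells and 14 UMIs in the Smo cKO T cells, so that it was at least 3.10 higher on the log2 scale in the control (against 3 UMIs) and 4.79 higher in the Smo cKO library. Car2, carbonic anhydrase 2, was likewise at 0 and 6 UMIs in T cells and at 18 and 40 UMIs in NK-like members.

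Lower in NK-like members was Il7r, the interleukin 7 receptor, with 3 and 2 UMIs against 36 and 114 in T cells, log2 ratios of -3.65 (-5.99 to -1.99) and -4.02 (-7.08 to -2.13). Cxcr6, a receptor of tissue-resident T cells, gave 1 and 1 UMI against 21 and 50, with ratios of -4.46 (-9.83 to -1.82) and -3.83 (-9.16 to -1.28). Lat, the T cell receptor adaptor, gave 1 and 2 UMIs against 19 and 58, Ramp3 1 and 1 UMI against 38 and 77, and Trdc, the delta chain constant gene, 2 and 5 UMIs against 34 and 104. These 5 genes were thus found in the T cells and nearly missing from the NK-like members of both libraries. Apoe, C1qa and C1qb, which are macrophage genes, were among the 10 lowest too. The T cells carried the macrophage list at 8003 and 4684 CPM, against 681 and 1179 CPM in the NK-like members, and the part of this in the contrast was not tested. Without the 2 control and 14 Smo cKO T cells above 2000 genes, the list in T cells was at 2126 and 2000 CPM.

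Transcripts of T cell receptor constant genes were present in the NK-like members although Cd3 UMIs were 0 by the rule. Trbc1 gave 20 and 57 UMIs (231 and 445 CPM, against 375 and 310 CPM in T cells), and Trbc2 gave 11 and 27 UMIs (127 and 211 CPM, against 472 and 377 CPM in T cells). Trac, the alpha constant gene, gave 3 and 2 UMIs (34.6 and 15.6 CPM, against 121 and 124 CPM in T cells), and Trdc gave 2 and 5 UMIs. The 4 genes together were found in 23 of 36 control and 30 of 43 Smo cKO cells, and in the control all 4 were at lower levels than in T cells. The T cell levels here include 2 control and 14 Smo cKO T cells above 2000 genes. With them the list of NK cell markers outside the rule was at 2926 and 2524 CPM in T cells, and without them at 2602 and 4897 CPM. T cells whose Cd3 molecules were missed cannot be told apart from NK cells by the rule alone.

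Between genotypes, in all 117 members together, 61 of 1248 genes at 100 CPM or more (4.89%) were higher by 2-fold or more in the Smo cKO and 29 (2.32%) were lower, with a median over all genes of 0.08 on the log2 scale. The genes furthest from equal included products of neutrophil precursors. Ngp, a secondary granule protein, gave 76 and 974 UMIs (log2 ratio 2.99), Lcn2, lipocalin 2, 23 and 191 UMIs (2.37), Camp, cathelicidin, 219 and 1202 UMIs (1.77), and S100a9, a calprotectin subunit, 651 and 2772 UMIs (1.40). Nearly all of these UMIs came from the granule-gene members, which held 57.6% and 61.0% of the member UMIs. The genotype contrast is therefore given separately for the kinds.

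In the NK-like members, 167 of 1410 genes (11.8%) were higher by 2-fold or more in the Smo cKO and 95 (6.74%) were lower. The median over all genes was 0.07 on the log2 scale. Without the 5 deep cells, 34 control and 40 Smo cKO cells remained, and 165 of 1424 genes (11.6%) were higher and 139 (9.76%) lower. At 100 CPM few molecules were counted here, and the part of counting error in these shares was not tested.

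Plac8, a small cysteine-rich protein of leukocytes, gave 21 UMIs in 10 control NK-like members and 162 UMIs in 22 Smo cKO NK-like members (242 and 1265 CPM), a log2 ratio of 2.38 (1.72 to 3.11). Without the deep cells it was 2.21 (1.53 to 2.96), with 20 and 153 UMIs. The granule-gene members held 595 and 884 UMIs of Plac8, and over all members the ratio was 0.08 (-0.07 to 0.22), or -0.74 (-0.95 to -0.53) without members above 2000 genes. The ratio in T cells was 1.33 (0.41 to 2.42), and 1.31 (0.34 to 2.43) without T cells above 2000 genes. The neutrophil list was at 74.3 and 14089 CPM in the latter T cells. The part of neutrophil transcripts in the T cell ratio of Plac8 was not tested. Ifi27l2a, an interferon-induced gene, gave 2 and 35 UMIs (3.56, 1.60 to 6.67). Irf8 and Klrk1, described above, were also among the 10 highest without the deep cells, together with Klra7 (2 and 29 UMIs, 3.13, 1.15 to 6.24), H2-T22 (2 and 22 UMIs, 2.73, 0.71 to 5.87), Spp1 (1 and 22 UMIs, 15 of the 22 in 1 cell) and Capg (0 and 11 UMIs). Over all NK-like members the ratio of Klra7 was 0.97 (-0.11 to 2.17), within counting error. Capg there gave 10 and 13 UMIs (115 and 101 CPM, -0.19, -1.49 to 1.16), with the 10 control UMIs in 1 deep cell. Mrps16 (0 and 12 UMIs) and Ubald2 (8 and 46 UMIs, 1.80, 0.70 to 3.09) completed these 10.

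Lower in the Smo cKO NK-like members without the deep cells was Rgs2, a regulator of G protein signaling, with 55 and 29 UMIs (965 and 308 CPM), a log2 ratio of -1.65 (-2.35 to -0.98). The T cell ratio of Rgs2 was -1.33, and -0.54 (-1.06 to 0.00184) without T cells above 2000 genes. Over all members Rgs2 was at -1.50, and at -0.63 (-1.34 to 0.07) with 3 or more NK gene UMIs. Mxd4, a MYC antagonist, gave 14 and 5 UMIs (-2.21), Ago2, the Argonaute protein of RNA silencing, 11 and 3 UMIs (-2.60, -5.08 to -0.68), Pclaf, a PCNA-associated factor, 19 and 9 UMIs (-1.80), and Ccl7, a monocyte chemokine, 25 and 14 UMIs (-1.56). Crip1 gave 136 and 119 UMIs (-0.92, -1.29 to -0.55), under 2-fold, and 214 and 266 UMIs over all NK-like members (-0.25, -0.52 to 0.02). Atxn7, Aprt, Shmt2 and Rgcc, with at most 14 UMIs in either library, completed the 10 lowest.

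Ccl2, a monocyte chemokine, depended on a single cell. Over all NK-like members it gave 109 and 25 UMIs, a log2 ratio of -2.69. Without the deep cells it gave 8 and 21 UMIs, a log2 ratio of 0.67 (-0.57 to 2.05), so the direction turned. Cryab and Hspb1, small heat shock proteins that were highest in the Smo cKO NK-like members, rested on the 1 cell of 12652 UMIs in the same way.

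**Figure D4:**
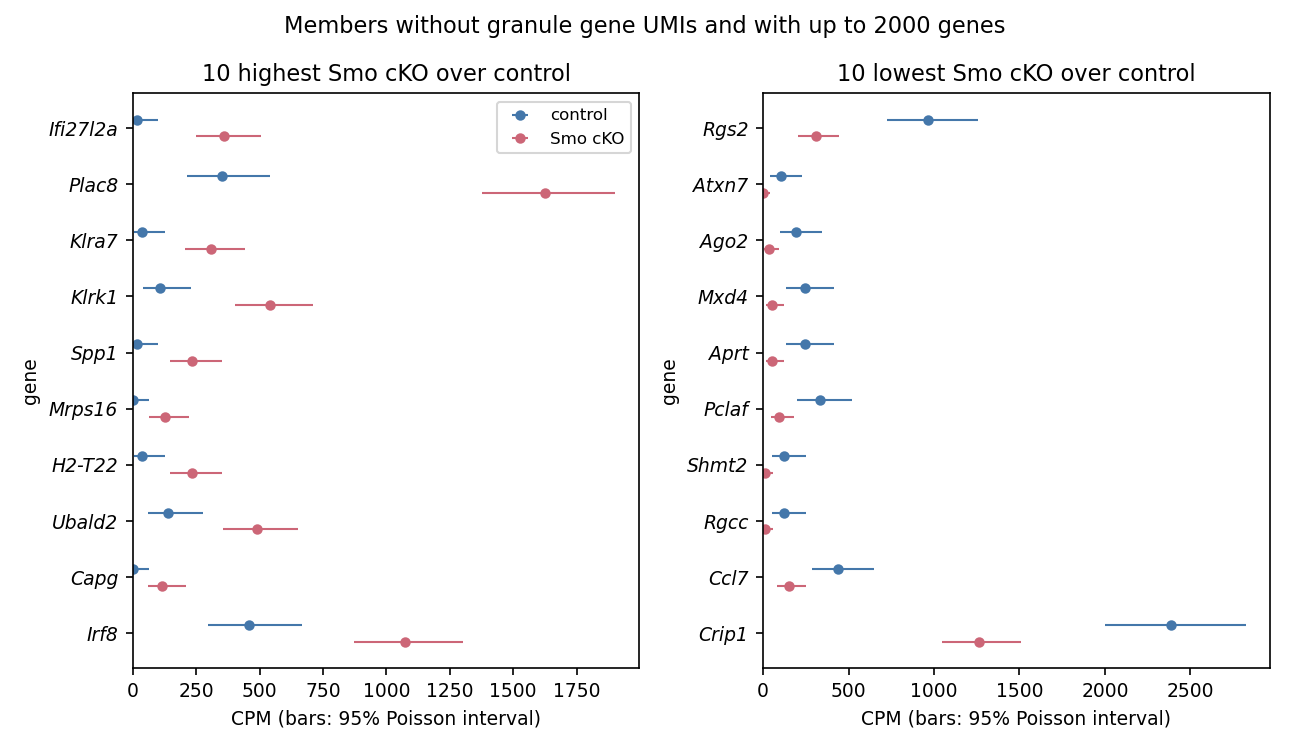
Level in CPM (x axis) in the control and Smo cKO NK-like members without the deep cells, with exact 95% Poisson intervals, for the 10 genes highest (left) and the 10 lowest (right) in Smo cKO over control. Klrk1 and Irf8 are higher in the Smo cKO cells and Rgs2 is at 965 CPM in the control against 308 CPM, with intervals that do not overlap.

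Gene groups were taken from lists written with earlier results of these data known. Of the 31 NK cell markers outside the rule, 21 reached 100 CPM in the NK-like members, 7 of them were at least 2-fold higher in the Smo cKO library (Klrk1, Klrc2, Klra8, Klra9, Klrb1b, Klri2 and Prf1) and 0 were 2-fold lower, against 11.8% and 6.74% of all genes. Their summed level was 8718 and 12781 CPM, a log2 ratio of 0.55 (0.43 to 0.68), with 40.4% of it from Ccl5. All of these but Prf1 are receptors, while Il2rb, Klrd1, Klrc1 and Ccl5 were under 2-fold. Without the deep cells 8 of 21 markers were 2-fold higher, where 11.6% of all genes were, with Prf1 no longer among them and Klra4 and Klra7 added. A single deep control cell held 80% of the control Klra7 UMIs, so its removal moved that gene. The summed level was then 12180 and 15631 CPM (0.36, 0.23 to 0.49). In T cells the ratio of the same list was -0.21 (-0.41 to -0.00697), and it turned to 0.91 (0.68 to 1.15) without T cells above 2000 genes. Over all members the list stood at 0.37, and with no limit on collagen UMIs it turned to -0.28.

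Among activating receptors and adaptors, 8 of 17 genes reached 100 CPM and 3 were 2-fold higher (Klrk1, Klrc2 and Klra8), against 11.8% of all genes, with 2714 and 3880 CPM summed (0.52, 0.29 to 0.75). Among inhibitory receptors, 5 of 18 reached the minimum and 2 were 2-fold higher (Klra9 and Klrb1b; 11.8% of all genes), with 843 and 1179 CPM summed (0.48, 0.07 to 0.91). The most abundant inhibitory gene, Klrd1, was not higher, and neither was Klrc1. The cytotoxic granule list gave 3 of 8 genes 2-fold higher (Prf1, Serpinb6b and Ctsd), against the same 11.8%, and, without the rule gene Gzma, 2032 and 3420 CPM summed (0.75, 0.50 to 1.01). Without the deep cells only Ctsd of the 3 stood past 2-fold, where 11.6% of all genes were higher, and the ratio without Gzma was 0.60 (0.32 to 0.88). Over all members that ratio was -0.16 (-0.31 to -0.00200), and in T cells -0.56, or 0.36 (0.05 to 0.67) without those above 2000 genes.

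The interferon-stimulated list gave 2 of 4 genes 2-fold higher (Isg15 with 1 and 15 UMIs, and Ifi27l2a), against 11.8% of all genes, and 1085 and 1757 CPM summed, a log2 ratio of 0.69 (0.34 to 1.06). Without the deep cells it was 755 and 1846 CPM, 1.29 (0.80 to 1.81). Over all members it was 0.99, and 0.24 (-0.33 to 0.84) where a UMI of Ncr1, Klrb1c or Klre1 was asked for as well. Ifitm3, a membrane restriction factor, had 57 and 83 UMIs (-0.02) over all NK-like members, and 9 and 44 UMIs without the deep cells, past 2-fold at 1.56 (0.51 to 2.78). In T cells the same list was at 895 and 3171 CPM (1.83), with 47.8% of it from Ifitm3, and at 818 and 2171 CPM (1.41, 1.0 to 1.84) without T cells above 2000 genes. The Smo cKO T cells also carried more of other lists, the neutrophil list being at 60.4 and 6058 CPM, the erythroid list at 883 and 3656 CPM and the connective list at 3579 and 12168 CPM, and the part of these in the T cell value was not tested. Without T cells above 2000 genes the connective list was at 3911 and 2985 CPM, while the neutrophil list was at 74.3 and 14089 CPM and the erythroid list at 1026 and 7959 CPM.

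Among chemokine and homing receptors, Ccr2, the receptor for monocyte chemokines, gave 4 and 28 UMIs (2.24, 0.73 to 4.21). Ccr7, the lymph node homing receptor, gave 1 and 22 UMIs, of which 16 lay in 1 deep cell. Cxcr4, the receptor for the stromal chemokine Cxcl12, gave 13 UMIs in 9 cells and 12 UMIs in 8 cells. Cxcl12 itself was at 142 and 90.1 CPM over all kept cells and at 0 UMIs in the NK-like members. Among cytokine receptors and their signaling genes 0 of 8 were 2-fold higher (2 of 10, Stat4 and Cish, without the deep cells) and 1 was 2-fold lower (Il18r1, 11 and 7 UMIs, -1.22, -2.82 to 0.28), and among transcription factors 2 of 11 were higher (Irf8 and, only with the deep cells, Bhlhe40) and 1 lower (Tcf7, 10 and 6 UMIs, -1.30, -3.04 to 0.30). Of all genes 11.8% were 2-fold higher and 6.74% lower, and 11.6% and 9.76% without the deep cells.

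Among chemokines and cytokines 2 of 6 genes were 2-fold higher (Ccl4 and Cxcl10), against 11.8% of all genes, with 5023 and 7354 CPM summed and 70.2% of it from Ccl5 (0.55), and a ratio of 0.27 (0.10 to 0.44) without the deep cells. Proliferation genes gave 0 of 6 past 2-fold in either direction, where 11.8% of all genes were higher and 6.74% lower, and 4284 and 3818 CPM summed (-0.17, -0.36 to 0.03). Hedgehog pathway genes gave 4 and 1 UMIs in the NK-like members, too few for a comparison. Genes of other cells moved with the contrast: the connective list was at 7817 and 6402 CPM (3282 and 2642 CPM without the deep cells), the macrophage list at 681 and 1179 CPM (with Lyz2 at 15 and 28 UMIs, Adgre1 at 1 and 2 UMIs and C1qa at 3 and 3 UMIs) and the erythroid list at 716 and 1257 CPM. The endothelial list gave 4 and 5 UMIs and the muscle list 3 and 6 UMIs. The part of these transcripts, and of the deeper Smo cKO cells, in the genotype ratios was not tested.

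**Figure D5:**
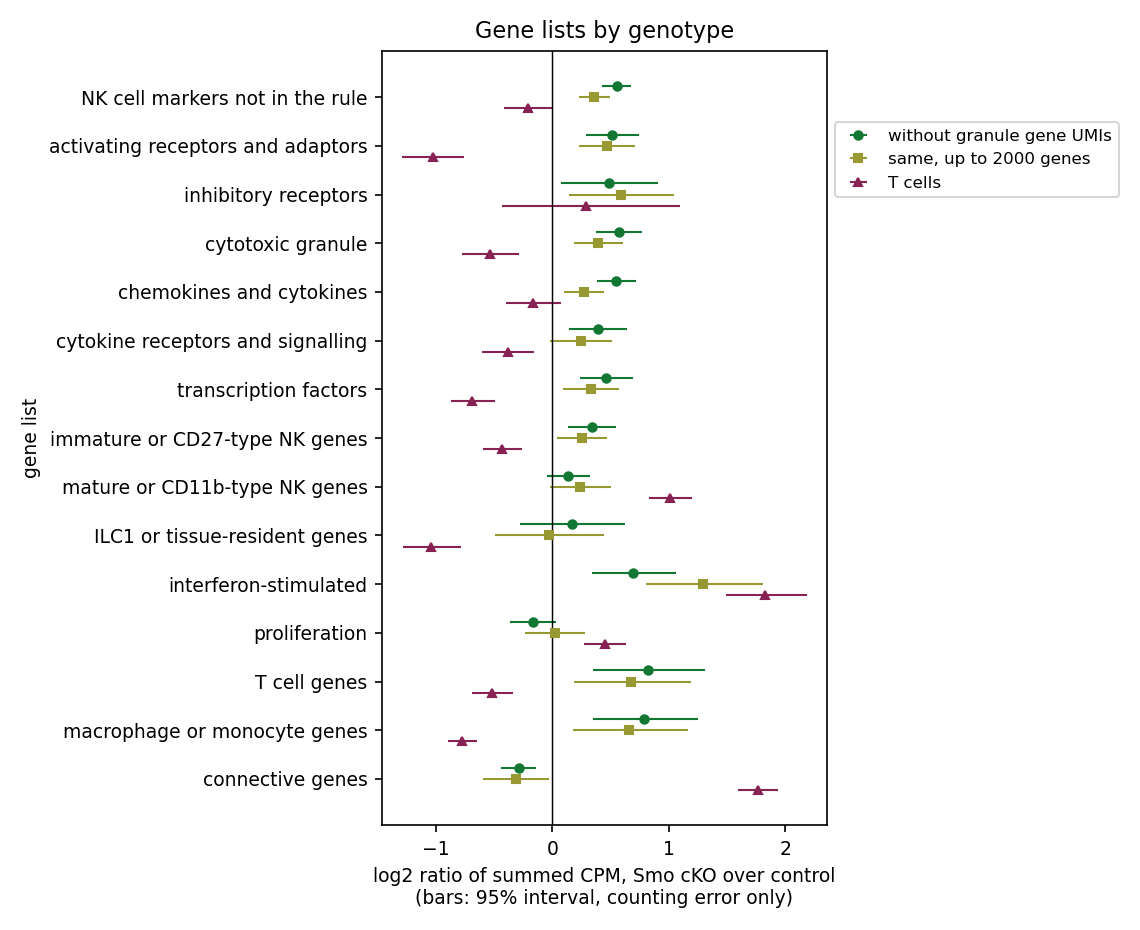
Log2 ratio of Smo cKO over control of the summed CPM of each gene list, in NK-like members (without granule gene UMIs), in the same cells with up to 2000 genes and in T cells, with 95% counting intervals. The NK marker list stands at 0.55 in NK-like members and -0.21 in T cells of all depths (0.91 without T cells above 2000 genes), and the interferon-stimulated list is above 0 in both.

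Against all other kept cells the granule-gene members had 69 of 1362 genes (5.07%) 4-fold or more higher and 208 (15.3%) lower in both libraries, led by Elane, Ctsg, Ms4a3 and Prtn3, which defined them. They were deeper cells, with medians of 6046 and 11193 UMIs and totals of 117764 and 200568 UMIs. Elane was at 6853 and 4667 CPM, Prtn3, proteinase 3, at 4305 and 5011 CPM, Mpo, myeloperoxidase, at 2267 and 2039 CPM, Ctsg, cathepsin G, at 2581 and 1954 CPM and Ms4a3 at 1053 and 793 CPM. The primary granule genes were thus at comparable levels in both libraries, within 2-fold for each. Summed counts of the secondary granule genes Ngp (76 and 973 UMIs, log2 ratio 2.91) and Camp (219 and 1200 UMIs, 1.69) and of the calprotectin gene S100a9 (650 and 2770 UMIs, 1.32) were past 2-fold. A few cells carried much of these sums. Ngp had a median of 2 UMIs per cell in both libraries, and 2 Smo cKO cells with 367 and 285 UMIs held 67.0% of its total there. Camp had medians of 4 and 2 UMIs per cell and highest values of 54 and 318, and S100a9 had medians of 22 and 17 and highest values of 134 and 747. The medians were thus not higher in the Smo cKO library. The spread over cells differed, however: S100a9 was found in 17 of 19 control and 12 of 19 Smo cKO cells, and Camp in 14 and 10. The Smo cKO cells thus held both more cells without these genes and cells with higher values, and a median describes them poorly. Of 1247 genes, 118 (9.46%) were higher by 2-fold or more and 68 (5.45%) lower in the Smo cKO cells, Ly6c2, a surface protein of monocytes and their precursors, being lower with 212 and 131 UMIs (-1.46) and Actb lower with 584 and 317 UMIs (-1.65). Their share of kept cells was 0.189% (0.114 to 0.295) and 0.200% (0.120 to 0.312).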

How the data were processed

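Callus cells of 2 libraries, control and Smo cKO, were sequenced by droplet single-cell RNA sequencing. The authors deposited raw UMI counts for each gene and cell barcode, made, per the submitters' processing notes, with Cell Ranger 3.0.2 on mm10. Values here were computed from these counts with Python 3.11.15, numpy 2.4.6, scipy 1.17.1, pandas 2.3.3 and matplotlib 3.10.9. The counts need no length correction between libraries, but levels in CPM (UMIs scaled to a total of 1000000) are not per length.

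UMIs were summed per gene over the cells of a kind in each library and divided by the summed UMIs of those cells (CPM). With 1 library per genotype no count model was fitted and no p-value is given. A genotype ratio counted as higher or lower at 2-fold or more in genes at 100 CPM or more in at least 1 library, and a ratio between cell types at 4-fold or more in both libraries. Ratios have the exact conditional interval of 2 Poisson counts, shares the Clopper-Pearson interval and differences of shares the Newcombe interval, all at 95%. A count of 0 was set to 3 UMIs for bounds. Shares of cells with a UMI that are given as thinned were computed after thinning each cell to 1000 UMIs (seed 1). This left out 10 control and 3 Smo cKO NK-like cells with fewer. Shares given as unthinned, without thinning or before thinning, and counts of cells with a UMI, use all cells at full depth.

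Named genes were the rule genes and given markers, members of the lists by role, the 10 highest and 10 lowest genotype ratios ranked by the interval bound nearest to 0, the 15 highest genes against all other cells and the 10 highest and lowest against T cells. Sex-linked marker, mitochondrial, ribosomal protein, hemoglobin, immunoglobulin and rule genes were left out of rankings. The members and lists were chosen with earlier results of these data known. The split by the 5 granule genes and the values without cells above 2000 genes, in NK-like members and in T cells, or without Gzma were chosen after seeing the data. Alternatives changed the NK minimum, the gene, collagen and myeloid limits, the depth, the CPM minimum and the fold. The counting scripts were tested on simulated data with known ratios. The count of genes past 2-fold in the list of chemokine and homing receptors is not reported here. The cells that should lack NK genes were to be those with 10% or more collagen UMIs, but these numbered 8 and 6, and cells with 2% or more were used.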

Additional observations from a re-analysis of the deposited data

Results flagged for a closer look

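For 8 genes the genotype ratio of the NK-like members and that of the T cells pointed in opposite directions, with both counting intervals past 0. With 1 library per genotype, the difference between the cell types was not tested. Tyrobp had a log2 ratio of Smo cKO over control of 0.65 in NK-like members and -1.16 in T cells, Runx3 0.88 and -1.08, Srgn 0.79 and -0.70, and Ctsd, a lysosomal protease, 1.17 and -1.10. Ccl2 had -2.69 in NK-like members and 1.41 in T cells, Fn1, fibronectin, -1.70 and 1.13, Sparc, a matrix protein, -0.96 and 1.86, and Ass1, an enzyme of arginine synthesis, -4.37 and 2.09. The connective list was at 3579 and 12168 CPM in these T cells.

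None of the 8 genes kept opposite directions with both intervals past 0 once cells above 2000 genes (2 control and 3 Smo cKO NK-like members, 2 control and 14 Smo cKO T cells) were left out on both sides. Without them Tyrobp stood at 0.61 in NK-like members and 1.24 in T cells, and Srgn at 0.66 and 0.44, the same direction. Runx3 stood at 0.90 and -0.61 (-1.50 to 0.33), and Ctsd at 1.32 and -0.12 (-1.17 to 1.03), with T cell intervals over 0. In the NK-like members Ccl2, Fn1 and Sparc turned to 0.67, 0.78 and 0.30, with intervals over 0, and Ass1 had 2 and 0 UMIs. In the T cells Ccl2 then stood at 0.22 (-0.56 to 1.06), Fn1 turned to -1.52 (-2.70 to -0.34) and Sparc to -0.39 (-0.81 to 0.06).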

How the results depend on the processing

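No paired analysis was possible because each genotype has 1 library, and no replicate could be left out. Over all members, 275 values were recomputed under the alternatives: 180 stayed within the counting interval of the reported value (for counts of genes, within 1.5 times), 88 moved beyond it and 7 reversed. Sign changes of Plac8 and of the cytotoxic list, whose reported intervals held 0, were not counted as reversed. Plac8 went from 0.08 to -0.74 (-0.95 to -0.53) without members above 2000 genes, and the cytotoxic list from -0.10 to 0.57 (0.37 to 0.77) without the granule-gene members. As reported, the shares of kept cells were 0.547% and 0.652%, the share of all members in members plus T cells differed by -20.7 points, 61 genes were higher by 2-fold and 29 lower, the summed NK marker, cytotoxic granule and interferon-stimulated lists had log2 ratios of 0.37, -0.10 and 0.99, and 22 genes were higher than in T cells. The cause of the changes below was not tested, except where fewer cells or genes enter by construction. List levels use no CPM minimum, so the 50 and 200 CPM minimums gave none.

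A minimum of 3 UMIs of the NK genes gave a control share of 0.378%, a difference in kept cells of 0.201 points (0.00682 to 0.402), past counting error where the reported 0.105 points was not, 95 higher and 59 lower genes and 0.76 for NK markers. A minimum of 5 UMIs gave shares of 0.219% and 0.442%, differences of -6.75 points of members plus T cells (-20.4 to 6.0) and 0.223 points of kept cells (0.0625 to 0.395), 172 higher and 121 lower genes and list ratios of 1.06, 0.19 and 0.41. Asking for a UMI of Ncr1, Klrb1c or Klre1 as well gave 0.149% and 0.273%, -7.16 points (-20.9 to 4.83), 249 higher and 233 lower genes, 0.068 for the cytotoxic and 0.24 (-0.33 to 0.84) for the interferon-stimulated list, and turned Ccl2 to 0.28. Leaving out cells with more than 2000 genes gave 1.16% and 1.24%, 138 higher and 76 lower genes, list ratios of 0.84, 0.13 and 1.72, and Ccl2 at 1.11. A minimum of 500 genes gave 0.63 for NK markers.

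With no collagen limit 177 genes were higher and the list ratios were -0.28, -0.64 and 1.67. Ccl5 (-0.39), Xcl1 (-0.015), Ccl2 (0.86) and Plac8 (-0.58, -0.72 to -0.43) changed sign. Without cells at 1% or more of UMIs on myeloid genes 71 genes were lower, with 0.21 for NK markers and 0.17 for the cytotoxic list. Thinned to 1000 UMIs, 308 genes were higher and 192 lower, with 0.84 for NK markers and 1.52 for the interferon-stimulated list. A gene minimum of 50 CPM gave 182 higher and 123 lower genes, 200 CPM gave 21 and 13, and a fold of 1.5 gave 208 and 97.

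Leaving Gzma out of the cytotoxic list gave -0.16. Leaving out the granule-gene members, chosen after seeing the data, gave 0.358% and 0.452%, 167 higher and 95 lower genes, list ratios of 0.55, 0.57 and 0.69, and 8 genes higher than in T cells. Leaving out cells above 2000 genes as well gave 165 higher and 139 lower genes, 0.40 for the cytotoxic and 1.29 for the interferon-stimulated list, and Ccl2 at 0.67. Depth limits single genes: 3 UMIs were 34.6 and 23.4 CPM in the NK-like members.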

Other observations

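NK-like members with a Ly49 UMI (11 control and 18 Smo cKO cells) and those without one (25 and 25 cells) were set side by side within each library. Xcl1 was at 266 CPM in Ly49-carrying and 1060 CPM in the other control cells, and at 767 and 1277 CPM in the Smo cKO library. Gzma, a rule gene, was at 1912 and 1060 CPM in the control and at 3465 and 992 CPM in the Smo cKO library. Median depths were 1357 and 1441 UMIs in the control and 1867 and 2183 UMIs in the Smo cKO library, but both deep control cells had a Ly49 UMI. Without cells above 2000 genes, Gzma was at 6504 and 1060 CPM in the control and at 3465 and 1505 CPM in the Smo cKO, and Xcl1 at 257 and 1060 CPM, with 3 UMIs in the 9 control cells with a Ly49 UMI, and at 767 and 1839 CPM. These groups were formed after the data were seen, and the differences were not tested.

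Other lists were set side by side in the NK-like members. Among immediate early and dissociation genes, 2 of 12 (Fos with 8 and 24 UMIs, and Zfp36 with 4 and 14 UMIs) were 2-fold higher in the Smo cKO library, against 11.8% of all genes. Without the 5 deep cells 0 of 13 were, against 11.6% of all genes. Genes of glucose and amino acid use were at 3961 and 5051 CPM summed, with 0 of 10 past 2-fold, where 11.8% of all genes were higher and 6.74% lower. Without the deep cells 2 of 10 (Pgk1 and Pgam1) were higher, against 11.6% of all genes. The immature list was at 3556 and 4497 CPM, the mature list at 4492 and 4942 CPM, 73.9% of it from Lgals1, a galectin of many cell types, and the list of type 1 innate lymphoid or tissue-resident genes at 785 and 882 CPM, 62.4% of it from Rgs1.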
